A study of Homo sapiens with 4 samples.

Results

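Transcript levels of 50 genes that act in G2 and mitosis were compared between A549 cells with RBM4 knocked down and control A549 cells. A549 is a human lung adenocarcinoma line, and RBM4 is a protein that binds RNA and takes part in the control of splicing and of translation. The 50 genes were taken by name, as a list of mitotic kinases, checkpoint, kinetochore, spindle and condensin genes, and all 50 were found by symbol among the 19732 symbols of the A549 table and in the H1299 table. The knockdown and the control of H1299, another human lung cancer line, were not analysed here, because the 3 value columns of that table carry names that match no label. Each A549 group had 1 library, so no difference below has a replicate error or a test, and each value describes these 2 libraries alone. The A549 column that adds a number to the name of the line was read as the knockdown and the bare name as the control. The labels do not hold that number, so every direction rests on this reading. The labels call the knockdown sample "sh"; its target sequence, its duration, and whether the cells were a pool or a clone are not stated in the labels.

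A cell enters mitosis when the kinase CDK1, bound to A- and B-type cyclins, is switched on by CDC25 phosphatases and amplified by the Polo and Aurora kinases. Kinesins and their partners then build the spindle, kinetochores attach it to chromosomes that condensins have compacted, and the spindle checkpoint restrains the anaphase-promoting complex until all are attached. The genes of this machinery are transcribed together late in the cell cycle. Their promoters often carry CCAAT boxes, bound by NF-Y, and the cell cycle homology region (CHR), which is bound by MuvB complexes that repress with the DREAM proteins and activate with MYBL2 and FOXM1.

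The deposited values were FPKM (fragments per kilobase of transcript and per mapped fragments of the library), summed here over all transcripts of a symbol. Library totals were 622366 FPKM in the knockdown and 671529 FPKM in the control, and the sequencing depth is unknown. The mitochondrial genome contributed 21.7% of the FPKM of the knockdown library and 18.6% of that of the control library. The targeted gene, RBM4, had 30.6 FPKM in the knockdown and 59.4 FPKM in the control library, which was 51.5% of the control. Of 6 epithelial markers, KRT8 (888 and 1646 FPKM in the knockdown and control libraries), KRT18 (912 and 1853 FPKM) and KRT7 (2446 and 1880 FPKM) were abundant in both, whereas EPCAM (2.75 and 2.74 FPKM) and CDH1 (6.54 and 7.70 FPKM) were low in both. KRT19 had 64.9 FPKM in the knockdown and 29.6 FPKM in the control library (log2 difference 1.11), the one of the 6 at least 2-fold higher, and KRT18 (-1.02) was the one at least 2-fold lower. Of 8 fibroblast markers, THY1 and COL1A1 reached 1 FPKM, and the list summed to 36.5 FPKM in the knockdown and 8.67 FPKM in the control library. The fibroblast genes DCN, COL1A2 and COL3A1 were at or near 0 in both. The 7 blood and immune markers summed to 30.2 FPKM in the knockdown and 9.06 FPKM in the control library, nearly all of it CD68 and CD14, with PTPRC at 0.05 and 0 FPKM. The 4 endothelial markers summed to 0.34 FPKM in the knockdown library and were listed at 0 in the control.

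All 50 genes were lower in the knockdown library than in the control library as deposited. Together they summed to 1812 FPKM in the knockdown and 2847 FPKM in the control library, which was 0.291% and 0.424% of all FPKM. Each gene's difference is given as a log2 ratio of the knockdown to the control value after adding 1 FPKM to both. The median over the 50 genes was -0.61, against -0.04 over the 12230 genes at 1 FPKM or more in either library. All 50 passed that filter in both libraries, with levels between 6.74 FPKM (CDC25C, knockdown) and 203 FPKM (TOP2A, control). Of all genes tested, 53.4% had a difference below 0.

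At least 2-fold lower were 5 of the 50 genes, CDC25B, FOXM1, KIF2C, NUSAP1 and MKI67, and none was 2-fold higher. Of all genes tested, 2.25% were at least 2-fold lower and 4.96% at least 2-fold higher. At a threshold of 1.5-fold, chosen after the values were seen, 28 of the 50 genes were lower, against 9.83% of all genes. None was higher by 1.5-fold, against 12.7% of all genes. In bulk RNA, fewer cells in G2 and mitosis and less of these transcripts per cell cannot be told apart.

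**Figure D1:**
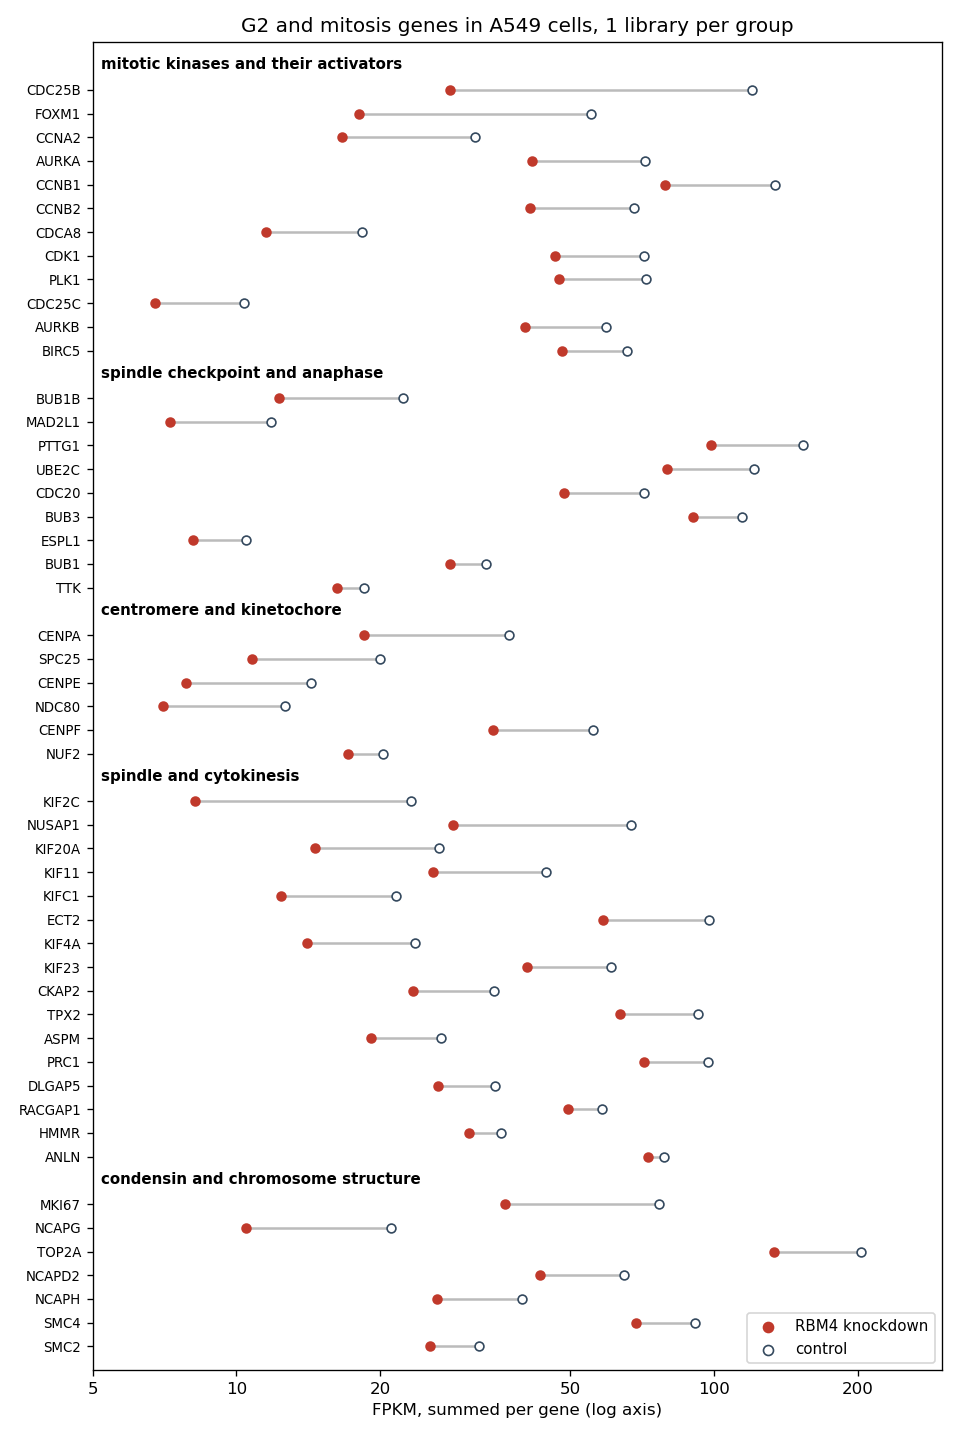
FPKM of the 50 genes in the A549 RBM4 knockdown library (filled) and control library (open), summed per gene on a log axis and grouped by role. Every filled point lies left of its open point, with the widest gap for CDC25B (28.01 and 119.95 FPKM) and the narrowest for ANLN (72.7 and 78.4 FPKM).

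The order of the levels was largely kept. Across the 50 genes the log2 levels of the knockdown and the control library had Pearson r = 0.946 and Spearman rho = 0.942, a description over genes that share 2 libraries. TOP2A and PTTG1 held the 2 highest places in both libraries. CDC25B left this order most visibly, at place 25 in the knockdown library against place 5 in the control library. The difference bore little relation to the mean level (Pearson r = 0.035, Spearman rho = 0.16, over the same 50 genes). The genes lie on 18 chromosomes, with at most 6 on any of them (chromosome 1).

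RefSeq promoters (GRCh38.p14, 250 bases before to 50 after each listed start) matched 42 of the 50 genes, with 54 starts. AURKA, FOXM1, BUB3, TPX2, UBE2C, BIRC5, RACGAP1 and TTK were not matched. The CCAAT box was searched as CCAAT on both strands. The CHR core was searched on both strands as TTTGAA, or else as TTCGAA, which reads the same on either strand. A CCAAT box was found at 68.5% of the 54 starts, against 34.6% of all 35116 starts in the table. A CHR core was found at 66.7% of the 54 starts, against 16.4% of all starts, and both motifs together at 51.9%, against 6.38%. Over starts of the genes tested here, the shares were 34.5%, 11.5% and 4.59%. A match is a run of letters, not a bound site.

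The 4 windows below are shown because they are the stretches of 110 bases before a start of these genes that lie outside every GENCODE exon and hold either motif. Capitals mark the CCAAT boxes and CHR cores, which share letters near the end of the MKI67 window, and each is written 5′ to 3′ on the strand of its gene, on GRCh38.p14. The first is chr10:128126424-128126533, minus strand, the second chr10:92593020-92593129, plus strand, the third chr12:53268189-53268298, plus strand, and the fourth chr1:214603085-214603194, plus strand.
MKI67: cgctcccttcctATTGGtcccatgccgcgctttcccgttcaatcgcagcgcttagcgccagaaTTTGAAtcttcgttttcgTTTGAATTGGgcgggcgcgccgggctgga
KIF11: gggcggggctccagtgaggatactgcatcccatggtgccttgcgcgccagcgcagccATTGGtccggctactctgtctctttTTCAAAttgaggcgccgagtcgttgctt
ESPL1: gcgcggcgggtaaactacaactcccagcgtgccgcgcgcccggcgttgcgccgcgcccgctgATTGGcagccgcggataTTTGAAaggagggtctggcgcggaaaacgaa
CENPF: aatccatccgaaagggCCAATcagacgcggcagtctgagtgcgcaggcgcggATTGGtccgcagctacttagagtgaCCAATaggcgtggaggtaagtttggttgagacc
The windows of KIF11 and ESPL1 each hold a CCAAT box followed by a CHR core nearer to the start, the MKI67 window holds 2 of each, and the CENPF window holds 3 CCAAT boxes and no CHR core.

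The 33 genes with a CHR core at any listed start had a median log2 difference of -0.61, and the 9 matched genes without one had a median of -0.76. With a CCAAT box the median was -0.63 over 32 genes, and without one it was -0.65 over 10 genes. Genes from both ends of the range carried both motifs. CDC25B, the lowest, had them at -73 and -38 from 1 of its 4 listed starts, and HMMR, the third highest, had 5 CCAAT matches, 2 of which overlap, and 2 CHR cores. KIF2C, the third lowest, had neither in its window.

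The group of kinases and their activators, counted here with FOXM1 and the partners of AURKB, held 12 genes, all lower, with a median difference of -0.67. By at least 2-fold 2 of them were lower and by at least 1.5-fold 9, against 2.25% and 9.83% of all genes tested. CDC25B (ENSG00000101224, chromosome 20, 3786772 to 3806121, plus strand, hg38) encodes a phosphatase that activates CDK1 at the entry into mitosis. It had 28.01 FPKM in the knockdown and 119.95 FPKM in the control library, or 23.4% of the control, a log2 difference of -2.06 that was undercut by 0.106% of all genes tested. Its relative CDC25C, which acts on the same kinase, was the least abundant of the 50 genes in both libraries, at 6.74 and 10.4 FPKM (-0.55). The 2 phosphatase genes thus differed unequally, with CDC25C at 65.1% of its control level.

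FOXM1 (ENSG00000111206, chromosome 12, 2857681 to 2877155, minus strand), a transcription factor for late cell cycle genes, had 18.02 FPKM in the knockdown and 55.3 FPKM in the control library (-1.57). CDK1 itself had 46.4 FPKM in the knockdown and 71.4 FPKM in the control library (-0.61), at the median of the 50. Its partner cyclins were somewhat lower. Cyclin A2, CCNA2, had 16.6 and 31.6 FPKM in the knockdown and control libraries (-0.89), cyclin B1, CCNB1, had 78.9 and 134 FPKM (-0.76), and cyclin B2, CCNB2, had 41.1 and 67.8 FPKM (-0.71). The Polo kinase PLK1 had 47.4 FPKM in the knockdown and 72.1 FPKM in the control library (-0.60), and AURKA, the Aurora kinase of spindle poles, had 41.7 and 71.7 FPKM (-0.77).

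The chromosomal passenger complex, which corrects faulty attachments and guides cytokinesis, is built of AURKB, survivin (BIRC5), borealin (CDCA8) and INCENP. AURKB had 40.2 FPKM in the knockdown and 59.4 FPKM in the control library (-0.55), BIRC5 had 48.0 and 65.7 FPKM (-0.44), and CDCA8 had 11.5 and 18.3 FPKM (-0.63). INCENP, the scaffold, which is not among the 50 genes, had 20.02 and 34.04 FPKM (-0.74). All 4 subunits were lower and none reached 2-fold.

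The 9 genes of the spindle checkpoint and anaphase were lower by a median of -0.55. None was lower by 2-fold and 4 were by at least 1.5-fold, against 2.25% and 9.83% of all genes tested. The subunits of the mitotic checkpoint complex, which holds back the anaphase-promoting complex, spanned most of the group. BUB1B, which encodes BubR1, had 12.3 FPKM in the knockdown and 22.4 FPKM in the control library (-0.81), and MAD2L1, which encodes Mad2, had 7.24 and 11.8 FPKM (-0.64). CDC20, both a checkpoint target and an activator of the complex, had 48.6 and 71.4 FPKM (-0.55), and BUB3 had 90.3 and 114 FPKM (-0.34). On summed values, the kinases that start checkpoint signalling lay closest to the control. BUB1 had 27.99 and 33.3 FPKM (-0.24), and TTK, also called Mps1, had 16.2 and 18.5 FPKM (-0.18). This order depended on the transcripts summed. With only the transcript of highest mean level per gene, BUB1 was at -0.43, TTK at -0.70 and ESPL1, which encodes separase, at -0.17.

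For the step into anaphase, securin and separase differed by unequal amounts. Securin, PTTG1, which inhibits separase, had 98.3 FPKM in the knockdown and 153 FPKM in the control library (-0.64). Separase, ESPL1, which cleaves cohesin, had 8.11 and 10.5 FPKM (-0.33). UBE2C, the ubiquitin-conjugating enzyme that works with the anaphase-promoting complex, had 79.7 and 121 FPKM (-0.60).

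On summed values, the 6 centromere and kinetochore genes had the lowest group median, -0.78. Of these, 5 were lower by at least 1.5-fold and none by 2-fold, against 9.83% and 2.25% of all genes tested. The order of the group medians depended on the transcripts summed. With only the transcript of highest mean level per gene, the spindle and cytokinesis genes had the lowest median. CENPA, the histone H3 variant that marks centromeres, had 18.5 FPKM in the knockdown and 37.2 FPKM in the control library (-0.97). It was just short of 2-fold, and passed it with a pseudocount of 0.1 FPKM (-1.003). Its exons overlap those of SLC35F6 on the same strand, which had 28.1 and 40.02 FPKM, so its value is uncertain. The kinetochore motor CENPE had 7.82 and 14.3 FPKM (-0.80), and CENPF had 34.4 and 55.8 FPKM (-0.68).

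The NDC80 complex, the main microtubule attachment of the kinetochore, pairs NDC80 with NUF2 at one end and SPC24 with SPC25 at the other. Its subunit genes were not lower by the same amount. NDC80 had 7.03 FPKM in the knockdown and 12.6 FPKM in the control library (-0.76), and SPC25 had 10.8 and 19.96 FPKM (-0.83). NUF2 had 17.1 and 20.2 FPKM (-0.23), the smallest difference of this group. SPC24, which is not among the 50 genes, had 11.0 and 17.1 FPKM (-0.59).

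The 16 spindle and cytokinesis genes had a median of -0.56 and the widest range after the kinases, from -1.39 to -0.11. Of these, 2 were lower by at least 2-fold and 7 by at least 1.5-fold, against 2.25% and 9.83% of all genes tested. KIF2C (ENSG00000142945, chromosome 1, 44739818 to 44767767, plus strand), a kinesin that depolymerises microtubules at centromeres, had 8.19 FPKM in the knockdown and 23.1 FPKM in the control library, or 35.4% of the control (-1.39). NUSAP1 (ENSG00000137804, chromosome 15, 41332694 to 41381050, plus strand), which bundles spindle microtubules, had 28.3 FPKM in the knockdown and 66.9 FPKM in the control library (-1.21). NUSAP1 shares exon bases with another annotated coding gene on the same strand.

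Of the other motors, KIF20A, which acts at the central spindle, had 14.6 FPKM in the knockdown and 26.5 FPKM in the control library (-0.82). The bipolar spindle motor KIF11 had 25.8 and 44.4 FPKM (-0.76), the minus-end motor KIFC1 had 12.4 and 21.6 FPKM (-0.75), and the chromokinesin KIF4A had 14.0 and 23.7 FPKM (-0.72). The near-identical retrocopy KIF4B was below 0.1 FPKM in both libraries. These 4 motors were therefore at 55.0% to 59.3% of the control level.

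TPX2, an activator of AURKA, had 63.5 FPKM in the knockdown and 92.5 FPKM in the control library (-0.54), CKAP2 had 23.4 and 34.6 FPKM (-0.54), and ASPM, of spindle poles, had 19.1 and 26.8 FPKM (-0.47). DLGAP5, which stabilises fibres near chromosomes, had 26.5 and 34.8 FPKM (-0.38), and HMMR had 30.7 and 35.8 FPKM (-0.22).

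The cytokinesis genes lay on both sides of the median of the 50 genes. ECT2, the exchange factor that activates RhoA at the cleavage furrow, had 58.6 FPKM in the knockdown and 97.6 FPKM in the control library (-0.72). Its recruiting complex, centralspindlin, consists of KIF23, at 40.5 and 60.9 FPKM (-0.58), and RACGAP1, at 49.5 and 58.3 FPKM (-0.23). With only the transcript of highest mean level per gene, this order turned, with KIF23 at -0.57 and RACGAP1 at -0.68. PRC1, which crosslinks the central spindle, had 71.4 and 97.2 FPKM (-0.44). Anillin, ANLN, the scaffold of the contractile ring, had 72.7 FPKM in the knockdown and 78.4 FPKM in the control library (-0.11), the smallest difference of the 50. ANLN came to lie above 0 once the libraries were rescaled to the same total or the mitochondrial genes were left out.

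Among the 7 condensin and chromosome structure genes the median was -0.58. By 2-fold 1 was lower and by at least 1.5-fold 3 were, against 2.25% and 9.83% of all genes tested. MKI67 (ENSG00000148773, chromosome 10, 128096659 to 128126385, minus strand), the proliferation marker that coats mitotic chromosomes, had 36.5 FPKM in the knockdown and 76.6 FPKM in the control library (-1.05). It no longer passed 2-fold after rescaling to the same total (-0.94) or with mitochondrial genes left out (-0.89). TOP2A, the topoisomerase that untangles sister chromatids, was the most abundant of the 50 genes in both libraries, at 133 and 203 FPKM (-0.61).

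Within condensin, the regulatory subunits differed more than the ATPase core. The 3 subunits particular to condensin I were NCAPG at 10.5 FPKM in the knockdown and 21.1 FPKM in the control library (-0.94), NCAPD2 at 43.1 and 64.8 FPKM (-0.58) and NCAPH at 26.4 and 39.6 FPKM (-0.57). Exons of NCAPD2 overlap those of MRPL51 on the opposite strand, which had 207 and 286 FPKM. No strand setting was given, so the value of NCAPD2 is uncertain. The ATPases shared with condensin II were SMC4 at 68.7 and 91.3 FPKM (-0.41) and SMC2 at 25.4 and 32.2 FPKM (-0.33). The 3 condensin II subunits, which are not among the 50 genes, lay between, with NCAPD3 at -0.55, NCAPH2 at -0.49 and NCAPG2 at -0.48. With 1 library per group, the order of these differences could not be tested.

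**Figure D2:**
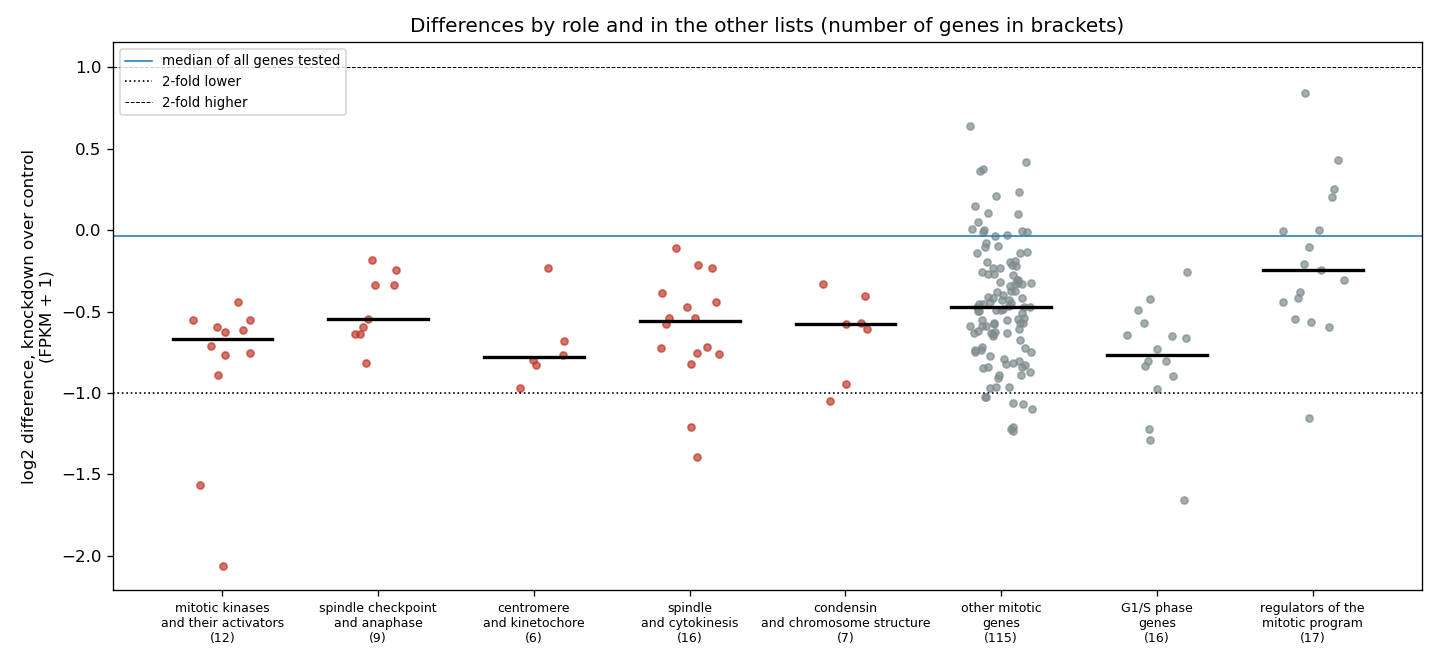
Log2 difference of FPKM plus 1, knockdown over control, for each of the 50 genes by role (red) and for 3 other lists (grey), with a black bar at each median. No red point lies above 0, and the blue line marks the median of all genes tested, -0.04. On summed values the group medians run from -0.78 (centromere and kinetochore) to -0.55 (spindle checkpoint and anaphase). Their order depends on the transcripts summed.

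Transcripts showed whether a gene's difference was spread over its forms. The table listed 257 transcripts of the 50 genes, and 175 of them had 1 FPKM or more in either library. Of these 175, 140 were lower and 35 higher in the knockdown library, 35 lower and 11 higher by at least 2-fold. That was 20% lower and 6.29% higher by 2-fold, against 8.24% and 8.63% of all 30157 transcripts at that level. The most abundant control transcript was lower in the knockdown library for each of the 50 genes. That transcript was picked by its control value, which favours a lower knockdown value. Picked by the mean of both libraries, it was lower for 49 of the 50 genes, with CCNA2 at 0.12.

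In CDC25B, FOXM1 and NUSAP1, as in KIF2C, MKI67 and other genes of the list, every transcript at 1 FPKM or more was lower. The 4 main CDC25B transcripts had 7.41, 8.11, 9.62 and 2.87 FPKM in the knockdown library, against 38.5, 35.4, 24.5 and 18.7 FPKM in the control library. The one that was lower by the least, ENST00000245960, held 34.4% of the gene's FPKM in the knockdown and 20.4% in the control library. The 2 main FOXM1 transcripts, ENST00000359843 and ENST00000627656, had 8.99 and 7.38 FPKM in the knockdown library, against 26.6 and 18.8 FPKM in the control library. The 3 main NUSAP1 transcripts had 14.8, 8.84 and 3.12 FPKM in the knockdown library, against 31.8, 15.6 and 13.8 FPKM in the control library. MKI67 had its longer transcript, ENST00000368654, at 27.6 and 60.8 FPKM in the knockdown and control libraries, and the shorter, ENST00000368653, at 8.98 and 15.9 FPKM.

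CCNA2 (chromosome 4, 121816444 to 121823933, minus strand) was listed with its difference in 1 of 2 nearly identical transcripts. ENST00000274026 had 0.09 FPKM in the knockdown and 16.4 FPKM in the control library, while ENST00000618014 had 16.5 and 15.2 FPKM. The pair share all introns and 2796 exon bases, and each has 1 base that the other lacks. With so few bases to tell them apart, the split between them cannot be read, and only their sum can. The values above are summed over the pair, and taking only the transcript with the highest mean turned its difference from -0.89 to 0.12. It was the single pair with the same introns among the 380 pairs of transcripts at 1 FPKM or more within these genes.

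AURKA was divided over 11 such transcripts. The most abundant, ENST00000395915, had 19.2 FPKM in the knockdown and 24.6 FPKM in the control library, whereas ENST00000395913 was listed at 0 in the knockdown library and had 15.2 FPKM in the control. The pair share 2114 exon bases and differ by 55, and both have a coding length of 1209 bases. With few bases to tell them apart, the split between them is uncertain. ENST00000312783, of the same coding length, was higher, at 6.90 FPKM in the knockdown and 2.54 FPKM in the control library. In TTK, the full-length ENST00000369798 had 10.3 FPKM in the knockdown and 17.3 FPKM in the control library (-0.70). A 240-base fragment, ENST00000627129, had 4.53 FPKM in the knockdown library, was listed at 0 in the control, and held 27.9% of the gene's FPKM in the knockdown library. The small difference of summed TTK thus included this fragment. In RACGAP1 the main transcript, ENST00000312377, had 17.9 and 29.4 FPKM (-0.68), and several short transcripts were higher.

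**Figure D3:**
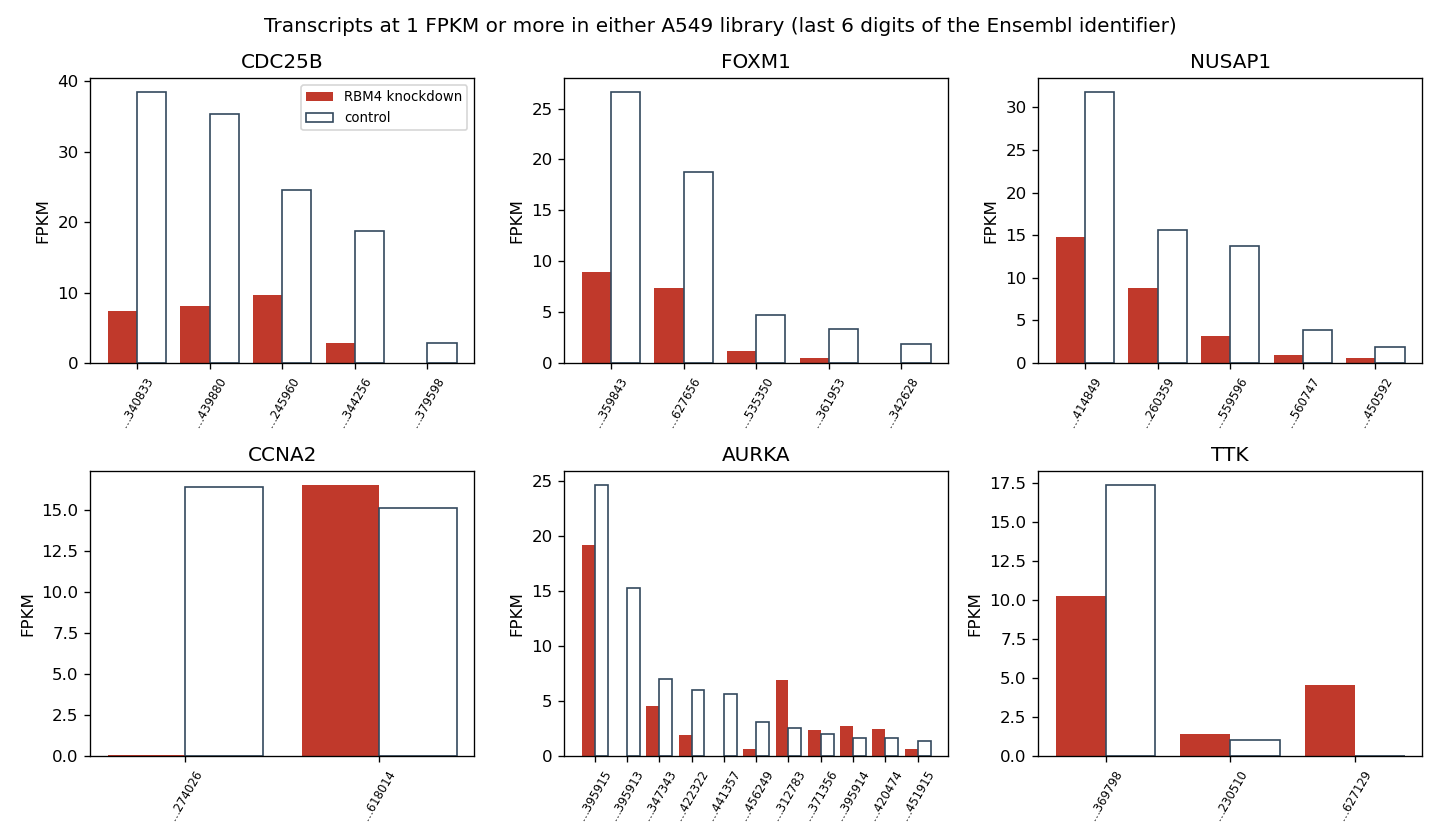
Levels in FPKM of the transcripts of 6 genes that reached 1 FPKM in at least 1 A549 library, with the RBM4 knockdown (filled) left of the control (open) and transcripts ordered by control level. All bars of CDC25B, FOXM1 and NUSAP1 are lower in the knockdown. The difference of CCNA2 is listed in 1 of its 2 transcripts (0.09 and 16.4 FPKM), which are nearly identical, so that split cannot be read.

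Some of the 50 genes are uncertain because reads can be shared. By the annotation, 4 share exon bases with another gene on the same strand, 18 with a gene on the opposite strand, which matters because no strand setting was given, and 15 have a named copy or pseudogene. FOXM1, KIF2C, NUSAP1 and MKI67 are among the 31 genes with such a feature. In the 19 genes with none, the median difference was -0.61, 11 were lower by at least 1.5-fold, and CDC25B was the gene lower by 2-fold. Both counts are taken over fewer genes by construction. The median, which was also -0.61 over all 50 genes, rests on fewer genes here.

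Genes of the same pathway outside the 50 were mostly lower too, though not all of them. Of 116 other mitotic genes, 115 were tested, of which 104 were below 0 and 11 above, with a median of -0.47. By at least 2-fold 8 were lower and none higher, and by at least 1.5-fold 42 were lower and 1 higher. Of all genes tested, 2.25% were lower by at least 2-fold and 9.83% by at least 1.5-fold. After mitochondrial genes were removed and the rest rescaled, 92 were below 0 and 23 above, and 3 were lower by 2-fold, against 1.44% of all genes under that scaling. The 3 lowest were FAM64A at 10.5 FPKM in the knockdown and 26.0 FPKM in the control library (-1.24), the outer kinetochore gene SKA3 at 3.96 and 10.6 FPKM (-1.22), and HJURP, the chaperone that loads CENPA, at 30.0 and 70.8 FPKM (-1.21). The 3 highest were the kinase NEK7 at 26.3 and 16.5 FPKM (0.64), and 2 genes of the anaphase-promoting complex, its subunit ANAPC10 at 14.2 and 10.4 FPKM (0.42) and its coactivator FZR1 at 11.4 and 8.59 FPKM (0.38). WEE1, the kinase that inhibits CDK1, had 25.3 and 21.4 FPKM (0.24), the opposite sign to CDC25B and CDC25C, which reverse its action.

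The 16 genes of the G1/S phase, listed for comparison, were all below 0 as well, also after that rescaling. As deposited their median was -0.77, and 3 were lower by at least 2-fold (E2F1, MCM6 and MCM5), against 2.25% of all genes tested. Values below 0 were thus not limited to G2 and mitosis genes. The 17 regulators of the mitotic gene program had a median of -0.25, with 12 below 0 as deposited and 10 after that rescaling. MYBL2, the activating partner of MuvB, was lowest, at 25.1 FPKM in the knockdown and 57.2 FPKM in the control library (-1.16). CDKN1A, which encodes the CDK inhibitor p21, was highest, at 133 and 73.6 FPKM (0.84), short of 2-fold. RBL2, the pocket protein of the repressive DREAM complex, had 21.6 and 17.99 FPKM (0.25), and E2F4 had 26.5 FPKM in both. The NF-Y subunit genes NFYA (-0.59), NFYB (-0.44) and NFYC (-0.10) lay on the same side of 0 as deposited.

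FPKM is relative to the rest of a library, so scaling bears on every difference. With mitochondrial genes left out and the rest rescaled, the median of all genes moved to 0.11, a shift of over 0.1, and that of the 50 genes to -0.45. Relative to the median of all genes, the 50 genes then lay at -0.56, against -0.57 as deposited. Rescaling moves all genes of a library together, so this gap is nearly fixed by construction. Of the 50, 49 stayed below 0 and 4 were lower by at least 2-fold (CDC25B, FOXM1, KIF2C and NUSAP1), and 17 rather than 28 were lower by 1.5-fold. Under this scaling 1.44% of all genes tested were lower by at least 2-fold and 5.64% by at least 1.5-fold. The part of the mitochondrial share in the single differences was not tested beyond this rescaling.

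**Figure D4:**
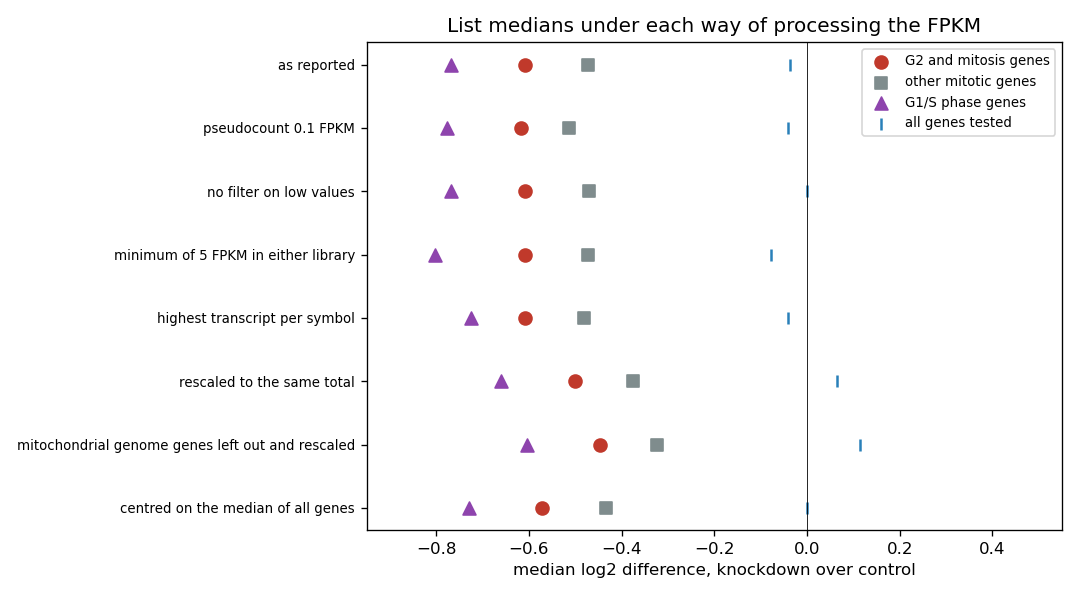
Median log2 difference, knockdown over control, of the 50 genes, the other mitotic genes, the G1/S phase genes and all genes tested, under each of 8 ways of processing the FPKM. The 50 genes lie between -0.62 and -0.45 under all 8, left of the median of all genes each time. Rescaling and centring move all medians together, so under those settings this order is kept by construction.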

How the data were processed

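Libraries were made from total RNA with an Illumina TruSeq kit, per the labels' protocols. The submitters' processing notes name CASAVA 1.8.2, TopHat, Cufflinks and build hg38, without role or order; the annotation, strand setting and read filters are not given in the sources used here. As deposited by the authors, the values are FPKM (fragments scaled by transcript length and library) per protein-coding transcript, 79989 transcripts in the A549 table. The 3 value columns of the H1299 table were not used; its symbol column alone was read.

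FPKM was summed per symbol. Genes at 1 FPKM or more in either library were kept, and log2 differences used a pseudocount of 1, which understates low genes. Calls of 2-fold have no test, since each group had 1 library. FPKM gives no counts, so no interval can be given. Alternatives changed the pseudocount, the filter, the transcript summary and the scaling. The calculation was tested on simulated data. The genes, lists and role groups were chosen with earlier results of these data known. Genes printed with full values were the 10 lowest and 6 highest differences, CDK1, CCNB1, PLK1, AURKB, TOP2A and MKI67, RBM4, and the 3 lowest and 3 highest other mitotic genes; the remaining genes are examples chosen after their values were seen. Transcripts were named where 1 held at least 20% of its gene in either library; others named were chosen after their values were seen. Positions and exons came from GENCODE release 29 (hg38), to which 256 of 257 transcripts matched. Python 3.11.15, numpy 2.4.6 and pandas 2.3.3 were used.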

Additional observations from a re-analysis of the deposited data

How the results depend on the processing

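No paired analysis was possible because each group had 1 library and the H1299 columns could not be matched to samples. For the same reason the planned H1299 values were not computed, and no model over both lines was run. The count of the 50 genes lower by 2-fold stayed between 4 and 7 under the 7 other settings of pseudocount, filter, transcript summary and scaling, and none was 2-fold higher in any. The share of all genes lower by 2-fold also varied, from 1.39% without a filter to 3.42% with a pseudocount of 0.1. The count became 1 once genes with overlapping exons or a named copy were left out, an alternative added after seeing the data, and the count at 1.5-fold became 11. Both have fewer genes by construction. The median of the 50 genes, -0.61, was -0.62 with a pseudocount of 0.1, -0.57 after centring on the median of all genes, -0.50 after rescaling to the same total and -0.45 with mitochondrial genes left out. In that last setting 17 were lower by 1.5-fold. The other mitotic genes lower by 2-fold, 8, became 3 after rescaling and 3 with mitochondrial genes left out. These last changes follow from the scaling factor, which moves all genes together. All genes past 2-fold, 882 (607 higher, 275 lower), became 1403 with a pseudocount of 0.1, and split into 810 higher and 176 lower (82.2% higher against 68.8%) with mitochondrial genes left out. Of 350 gene values under these settings, 346 kept their side of 2-fold. CENPA and NCAPG passed 2-fold with a pseudocount of 0.1, and MKI67 fell short of it after both rescalings. The settings without a filter and with a minimum of 5 FPKM could change none of the values, as all 50 genes exceed 5 FPKM in both libraries. Keeping a side of 2-fold can also hide a large move. With the highest transcript per symbol, CCNA2 went from -0.89 to 0.12 and TTK from -0.18 to -0.70. Depth is unknown, so the precision of a gene near 7 FPKM against one near 200 FPKM cannot be given.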
